A study of Mus musculus with 6 samples.

Results

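The transcripts of MHC class II and its regulators were followed in 6 RNA-Seq libraries of bone marrow-derived macrophages (BMDM), macrophages grown from mouse marrow in culture. The members were taken by gene symbol from the deposited table of read counts. All 10 were found among the 55453 symbols listed, namely H2-Aa, H2-Ab1, H2-Eb1, Cd74, H2-DMa, H2-DMb1, Ciita, Rfx5, Rfxank and March1. All 10 also passed the filter on low counts, as did 13680 genes in all.

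The libraries came from 3 PP2Ac KO and 3 WT samples of C57BL/6 background, and the question was how loss of PP2Ac alters macrophage transcription. PP2Ac, encoded by Ppp2ca, is the catalytic subunit of the phosphatase PP2A. The KO mice are LysMcre PP2Ac fl/fl, in which Cre under the Lysozyme 2 promoter removes the floxed exon 1 of Ppp2ca in myeloid cells. The WT mice were C57BL/6 mice from a commercial supplier, so the controls carried neither Cre nor floxed alleles and were not described as littermates. The paper describes its BMDM RNA-Seq as done on cells given cGAMP, the second messenger that activates STING, in both genotypes, whereas the labels give no treatment. Animals of both sexes were used in the study, and the labels name neither the age nor the sex behind a library.

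MHC class II molecules are dimers of an alpha and a beta chain that show peptides from the endosomal route to CD4+ T cells. The invariant chain Cd74 fills the groove of new dimers and guides them to endosomes, where H2-DM, a dimer of H2-DMa and H2-DMb1, removes its last fragment and helps load peptide. Transcription of these genes depends on a promoter complex of RFX (Rfx5, Rfxank and Rfxap), NF-Y and CREB, to which the coactivator Ciita binds, and Ciita is commonly the limiting part. March1 is a membrane ubiquitin ligase that sends class II molecules from the surface to lysosomes. Mice of the C57BL/6 strain lack a working E alpha gene, so that H2-Eb1 is transcribed but its chain has no partner.

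The class II promoters share an X box, read by RFX, and a Y box, read by NF-Y as CCAAT or its reverse ATTGG. RefSeq promoter windows (GRCm38.p6, 250 bases before to 50 after a start site) were at hand for 7 of the 10 members in 10 windows. H2-Ab1, Ciita and Cd74 had no window, so their promoters were not searched. The runs below each carry an X box match, a Y box match or both. They lie in front of class II chains, an H2-DM chain and the RFX subunit whose transcript changed most. Capitals mark a match on either strand to CCAAT or to the X box core, which is the first capital run of H2-Eb1 with its bases 2, 3 and 6 left free, and each run is read 5′ to 3′ on the strand of its gene.
H2-Eb1: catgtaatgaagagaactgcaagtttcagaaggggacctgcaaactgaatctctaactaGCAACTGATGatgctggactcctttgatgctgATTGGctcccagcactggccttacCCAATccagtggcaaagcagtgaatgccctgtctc
H2-Aa: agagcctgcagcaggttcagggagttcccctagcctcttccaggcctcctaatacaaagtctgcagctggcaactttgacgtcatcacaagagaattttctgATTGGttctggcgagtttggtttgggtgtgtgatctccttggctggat
H2-DMb1: ggtttacctaGTAACTGATGatgctaggct
Rfx5: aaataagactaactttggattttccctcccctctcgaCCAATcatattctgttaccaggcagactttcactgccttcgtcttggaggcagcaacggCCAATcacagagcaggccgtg

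The H2-Eb1 run covers chr17:34305717-34305866 on the plus strand and ends at the base before the start site. Its X box core begins 91 bases before the start, and the ATTGG after it begins 59 bases before the start, a spacing of 32 bases. The H2-DMb1 run covers chr17:34153087-34153116 on the plus strand, within the first exon of a longer annotated transcript, and only 30 bases are given. Its X box core begins 94 bases before the RefSeq start and is followed by ATTGG at 61 bases, a spacing of 33 bases. That ATTGG lies beyond the end of the printed run. The H2-Aa run covers chr17:34287824-34287973 on the minus strand and holds ATTGG 48 bases before the start but no match to the X box core. A miss of this fixed pattern does not show that the box is absent. The Rfx5 run covers chr3:94953958-94954074 on the plus strand and holds CCAAT at 113 and at 54 bases before the start. Such a pair was not particular to Rfx5. The Rfxank window, not printed here, held ATTGG at 165 and at 41 bases before the start, and a March1 window at 163 and at 3 bases. Of all 32851 RefSeq promoter windows, 2.97% held the X box core and 37.4% held CCAAT or ATTGG, so the X box match is the rarer of the pair. None of the members' windows held the E box CACGTG or the core of the interferon-stimulated response element (ISRE). These motifs were held by 7.15% and 3.44% of all windows, in that order, and Ciita, Cd74 and H2-Ab1 had no window to search. The palindrome TTCNNNGAA, held by 8.3% of all windows, matched in 2 of the 3 March1 windows and in no window of another member. In March1 it began 198 bases before a start in 1 window and 3 bases after a different start in the other. The loose X box form GNNACNG was in 88.5% of all windows. A match is a description of the letters, not evidence of binding.

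Library totals ran from 35257156 to 47390899 counts, and 3 counts in a library corresponded to 0.0604 to 0.0909 CPM (counts relative to library size, with TMM scaling, which corrects for differences in library composition). Ppp2ca, the targeted gene, had 33 to 47 counts in the KO libraries and 8279 to 10654 in the WT libraries (log2 fold change = -7.67, SE = 0.10), so every library matched its label. Over all genes tested, 18.1% rose in KO (2470 genes) and 19.0% fell (2604 genes), called at an FDR under 0.05 by edgeR for genotype alone. With upper-quartile scaling the split was 2095 higher and 3356 lower. The 7 macrophage markers summed to 7294 to 7483 CPM in KO and 6170 to 6801 CPM in WT. Of these, Fcgr1 (log2 fold change = 0.70) and Mertk (0.27) were called higher. The others were not called for genotype alone, and Itgam had the opposite sign (-0.09). T and NK cell markers summed to at most 0.212 CPM, and Cd8a was at 0 in all 6 libraries.

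Of the 10 members, 2 were higher (Rfx5 and March1), 1 was lower (Ciita) and 7 were not called, beside the 18.1% and 19.0% of all genes above. The median log2 fold change was 0.06 over the members and -0.02 over all genes tested. With the replicate number as a block, which compares same-numbered libraries, 4 members were higher and 1 lower, the additions being H2-DMa and H2-DMb1, beside 24.4% higher and 26.4% lower of all genes. At the stricter threshold of a log2 fold change over 1 or under -1 with FDR under 0.01, 1 member passed, Ciita, beside 6.35% of all genes. The KO and WT libraries did not overlap for 3 of the 10 members, whereas they did not overlap for 50.9% of all genes tested. The labels do not say whether the libraries of a group came from separate mice or cultures, so the p-values measure the spread between these libraries.

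**Figure D1:**
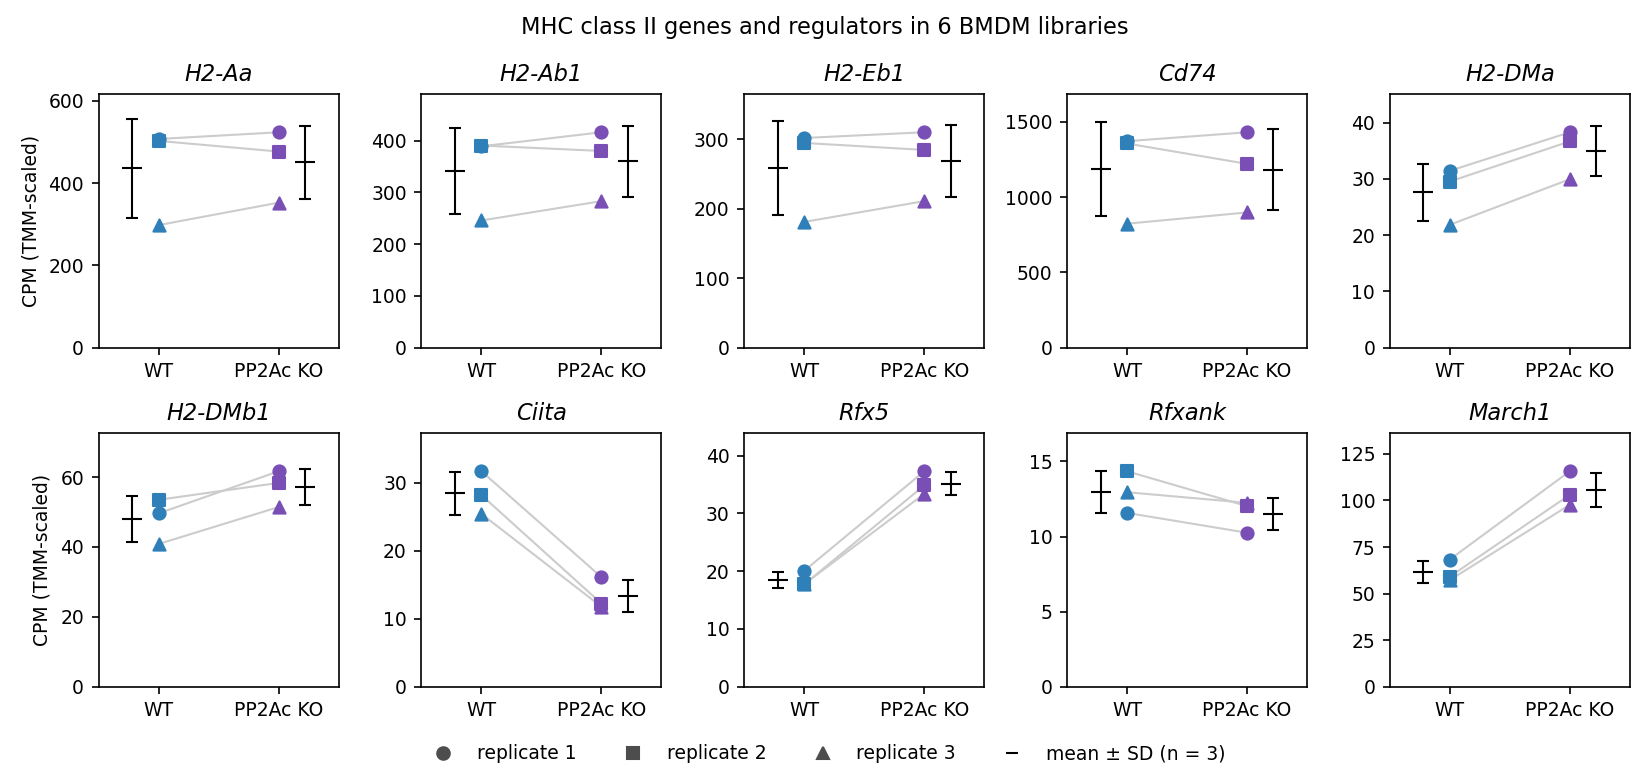
Level of each of the 10 genes (CPM, y axes from 0) in the 3 WT and 3 PP2Ac KO libraries, with marker shape giving the replicate number, grey lines joining same-numbered libraries, and black bars the mean ± SD (n = 3). Ciita lay lower and Rfx5 and March1 higher in every KO library than in any WT library, and both libraries numbered 3 were the lowest of their group for the chains, Cd74 and the H2-DM genes.

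The class II chains were among the more abundant members, and no difference between genotypes was detected in any of them. H2-Aa, which encodes the A alpha chain, stood at 524, 477 and 352 CPM in KO replicates 1, 2 and 3 and at 507, 503 and 298 CPM in the WT replicates. The groups overlapped, and in each genotype the library numbered 3 was far below the other two. The log2 fold change was 0.05 (95% interval -0.41 to 0.51, adjusted p = 0.873 from edgeR), an interval that runs from 0.751-fold to 1.43-fold.

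H2-Ab1, encoding the partner A beta chain, gave 416, 380 and 283 CPM in KO and 389, 391 and 246 CPM in WT. H2-Eb1, encoding the E beta chain, gave 310, 285 and 211 CPM in KO and 302, 295 and 181 CPM in WT. In all 3 chains the library numbered 3 was the lowest of its genotype, and the groups overlapped. Their log2 fold changes were 0.07 (95% interval -0.35 to 0.50) and 0.05 (95% interval -0.39 to 0.50), with adjusted p-values of 0.788 and 0.861 from edgeR.

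With the replicate block the intervals narrowed without a call. The H2-Aa difference was then 0.07 (95% interval -0.06 to 0.20, adjusted p = 0.331 from edgeR), at most 1.15-fold. For H2-Ab1 it was 0.09 (95% interval -0.02 to 0.20, adjusted p = 0.176 from edgeR), and for H2-Eb1 0.07 (95% interval -0.05 to 0.19, adjusted p = 0.305 from edgeR). KO was the higher library in 2 of 3 same-numbered pairs for each of the 3 chains, and the sign of each changed under some alternatives, so no direction is given.

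The chains kept nearly fixed proportions from library to library. The counts of H2-Ab1 were 0.767 to 0.825 of those of H2-Aa, and the counts of H2-Eb1 were 0.586 to 0.607 of those of H2-Aa. These ratios compare reads per gene and are not per length.

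Cd74, the invariant chain, lies on chromosome 18 and was the most abundant member. It reached 1430, 1221 and 898 CPM in KO and 1371, 1356 and 823 CPM in WT, again lowest in the libraries numbered 3. The groups overlapped, with means of 1183 ± 268 CPM in KO and 1184 ± 312 CPM in WT (SD, n = 3). The log2 fold change was -0.00 (95% interval -0.48 to 0.47, adjusted p = 0.999 from edgeR) and became 0.01 when blocked (95% interval -0.11 to 0.13). Cd74 counts were 2.55 to 2.76 times those of H2-Aa in the 6 libraries.

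The H2-DM chains were slightly higher in PP2Ac KO in every same-numbered pair, a difference not called for genotype alone and called with the replicate block. The pairs and the block assume that the replicate numbers pair the samples, which was not tested. H2-DMa and H2-DMb1 were also called with no filter on low counts, and H2-DMa by DESeq2. H2-DMa gave 38.3, 36.7 and 30.0 CPM in KO and 31.4, 29.5 and 21.9 CPM in WT. The groups overlapped through KO replicate 3, yet KO was higher in 3 of 3 pairs. The KO exceeded the WT libraries by 0.34 on the log2 scale (SE = 0.14, adjusted p = 0.0829 from edgeR), or 1.26-fold. With the block it was 0.35 (SE = 0.05, adjusted p = 0.000186 from edgeR), the smallest value among its alternatives, which ran up to 0.252.

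H2-DMb1 gave 61.6, 58.3 and 51.4 CPM in KO and 49.6, 53.5 and 40.8 CPM in WT, and KO was again higher in 3 of 3 pairs although the groups overlapped. This was a log2 difference of 0.25 (SE = 0.10, adjusted p = 0.0898 from edgeR), or 1.19-fold. With the block it was 0.26 (SE = 0.05, adjusted p = 0.00133 from edgeR), with alternatives from 0.00133 to 0.262. H2-DMb1 shares 22.7% of its 50-base windows with the neighbouring copy H2-DMb2, so that reads could have been divided between them, and 10.4% of the H2-DMa exon bases lie over Brd2 on the other strand, a gene with 17405 to 35242 counts. The kit marks strand, but how strand was set in the counting is not given in the sources used here.

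Ciita, the class II coactivator, was the member that fell. It gave 16.1, 12.2 and 11.8 CPM in KO and 31.7, 28.2 and 25.4 CPM in WT. Every KO library was below every WT library. The means were 13.4 ± 2.39 and 28.4 ± 3.15 CPM (SD, n = 3), and the log2 fold change was -1.09 (SE = 0.13, 95% interval -1.37 to -0.80, adjusted p = 0.000287 from edgeR), or 0.471-fold. The same-numbered pairs differed by -0.98, -1.20 and -1.11 on the log2 scale. Dexi overlaps 3.45% of the Ciita exon bases on the other strand, with 298 to 469 counts of its own. Ciita had 404 to 684 counts in KO and 1066 to 1575 in WT. A class of cells that became fewer and a lower amount of RNA per cell cannot be told apart in these bulk libraries.

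Some markers of other cell types were also lower in KO. The 4 fibroblast markers (Col1a1, Col1a2, Col3a1 and Dcn) summed to 22.7 to 33.4 CPM in KO and 74.9 to 118 CPM in WT. All 4 were lower at FDR under 0.05, against 19.0% of all genes tested. The 8 dendritic cell markers summed to 69.3 to 74.7 CPM in KO and 105 to 118 CPM in WT, sums made almost wholly of Itgax (66.3 to 71.4 CPM in KO and 103 to 115 CPM in WT). Of the 5 that could be tested, Itgax was lower (log2 fold change = -0.69), whereas Clec9a (1.25) and Siglech (0.97) were higher at 8 to 54 counts per library. The 5 B cell markers summed to 14.3 to 15.1 CPM in KO and 20.1 to 28.9 CPM in WT, of which Ighm made up 12.8 to 13.8 CPM in KO and 19.1 to 27.7 CPM in WT. Ighm alone was lower (log2 fold change = -0.80) of the 3 tested, and Cd79a and Pax5 had 5 to 13 counts. Their part in the Ciita result was not tested.

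Rfx5, the DNA-binding subunit of RFX, was higher in PP2Ac KO. It gave 37.3, 34.8 and 33.4 CPM in KO and 20.0, 17.7 and 17.7 CPM in WT, with no overlap between the groups. Its log2 fold change was 0.93 (SE = 0.08, 95% interval 0.76 to 1.10, adjusted p = 6.41e-05 from edgeR), or 1.90-fold. An antisense gene, B230398E01Rik, covers 26.8% of the Rfx5 exon bases and had 18 to 28 counts.

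Rfxank, the ankyrin-repeat subunit of RFX, was not called. It gave 10.3, 12.0 and 12.2 CPM in KO and 11.6, 14.3 and 13.0 CPM in WT. KO was lower in all 3 pairs while the groups overlapped. The log2 fold change was -0.17 (SE = 0.10, 95% interval -0.41 to 0.06, adjusted p = 0.233 from edgeR, or 0.0537 when blocked). Nr2c2ap overlaps 33.8% of the Rfxank exon bases on the other strand, with 452 to 811 counts of its own. Counts of Rfx5 were 2.73 to 3.64 times those of Rfxank in KO and 1.23 to 1.73 times in WT.

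March1, the ubiquitin ligase that shortens the stay of class II at the surface, was higher in PP2Ac KO. It gave 116, 103 and 97.7 CPM in KO and 68.3, 59.1 and 57.2 CPM in WT. All 3 KO libraries were above all 3 WT libraries. Its log2 fold change was 0.78 (SE = 0.09, 95% interval 0.58 to 0.98, adjusted p = 0.000256 from edgeR), or 1.71-fold, and the 3 pairs differed by 0.76, 0.80 and 0.77 on the log2 scale. The gene spans chr8:65617900-66471637 with several annotated start sites, which a count per gene does not separate.

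**Figure D2:**
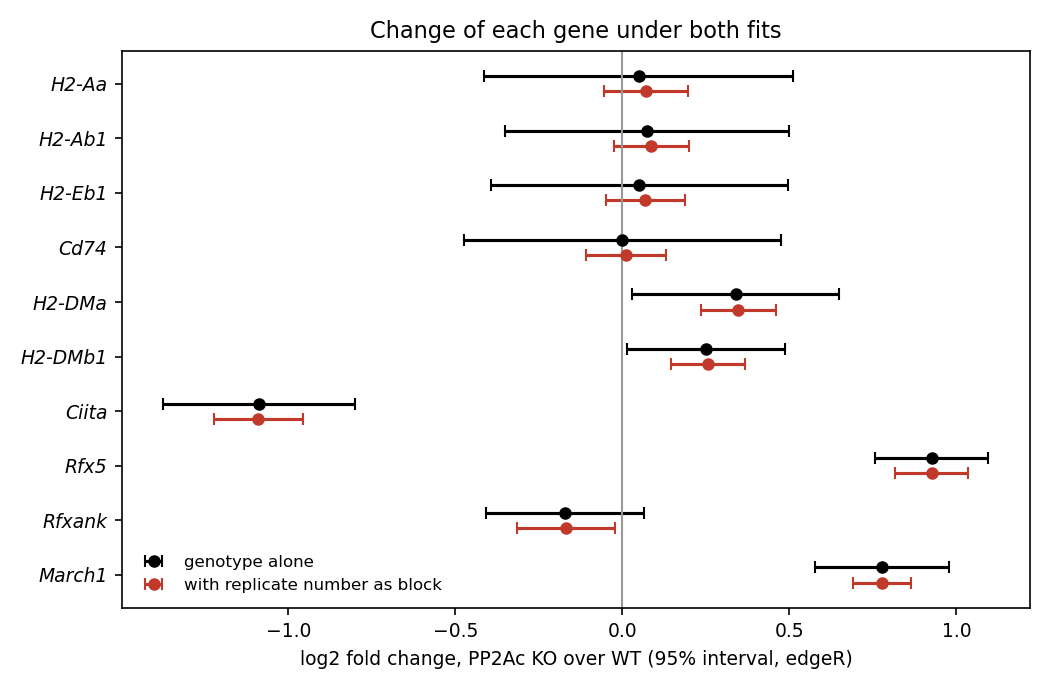
Log2 fold change of each gene, PP2Ac KO over WT, with its 95% interval from edgeR for genotype alone (black) or blocked on replicate number (red). The block narrowed the intervals of the chains and Cd74 around 0, narrowed those of H2-DMa and H2-DMb1 about nearly the same values, and left Ciita at -1.09, Rfx5 at 0.93 and March1 at 0.78.

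The members differed widely in level when counts were set against exon length (CPM per kilobase of the exons in GENCODE M21). In WT, Cd74 stood at 705 ± 186 CPM per kilobase (SD, n = 3), followed by H2-Eb1 at 133, H2-Ab1 at 133 and H2-Aa at 115. Neighbours among these 3 chains overlapped in range in both genotypes. H2-DMb1 followed at 28.5, then March1 at 8.61 and H2-DMa at 8.01, which overlapped in WT but not in KO, where they were at 14.8 and 10.1. Rfx5 at 3.37, Rfxank at 3.27 and Ciita at 2.98 CPM per kilobase formed the low end in WT, with overlapping neighbours. In KO these regulators separated, with Rfx5 at 6.40, Rfxank at 2.90 and Ciita at 1.40 CPM per kilobase and no overlap in range. Genes with many annotated exons outside the transcripts in use appear lower on this scale.

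Ratios of counts within a library do not depend on library scaling, and 5 were computed, chosen after the values had been seen. The counts of the 3 chains together were 77.5, 93.3 and 71.9 times those of Ciita in KO and 37.8, 42.1 and 28.5 times in WT, so the chains per Ciita transcript were 2.25-fold higher in KO. March1 counts were 0.0925, 0.0903 and 0.115 of the chain counts in KO and 0.0570, 0.0498 and 0.0790 in WT, a 1.63-fold difference. Neither ratio overlapped between genotypes. Rfx5 counts were 2.31 to 2.85 times those of Ciita in KO and 0.628 to 0.698 times in WT, a 4.07-fold difference.

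The chains were also set against the classical class I genes H2-K1 and H2-D1. Their counts were 0.162, 0.138 and 0.120 of the class I counts in KO and 0.236, 0.222 and 0.166 in WT, which left KO at 0.677 of WT with no overlap. The H2-DM counts were 0.0800, 0.0832 and 0.0961 of the chain counts in KO and 0.0676, 0.0699 and 0.0865 in WT, which overlapped, although KO was higher in 3 of 3 same-numbered pairs. In an exact permutation test of 3 against 3 libraries, two-sided, the first 4 ratios each gave p = 0.1, the smallest p this design allows, and the H2-DM ratio gave p = 0.3. The Benjamini-Hochberg values over the 5 were 0.125 for the first 4 and 0.3 for the H2-DM ratio in these exact tests. Each of the first 4 holds a gene that edgeR called in these libraries, and the ratios were chosen with the values seen. Their p-values therefore add no evidence beyond those calls, and the ratios are a description.

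**Figure D3:**
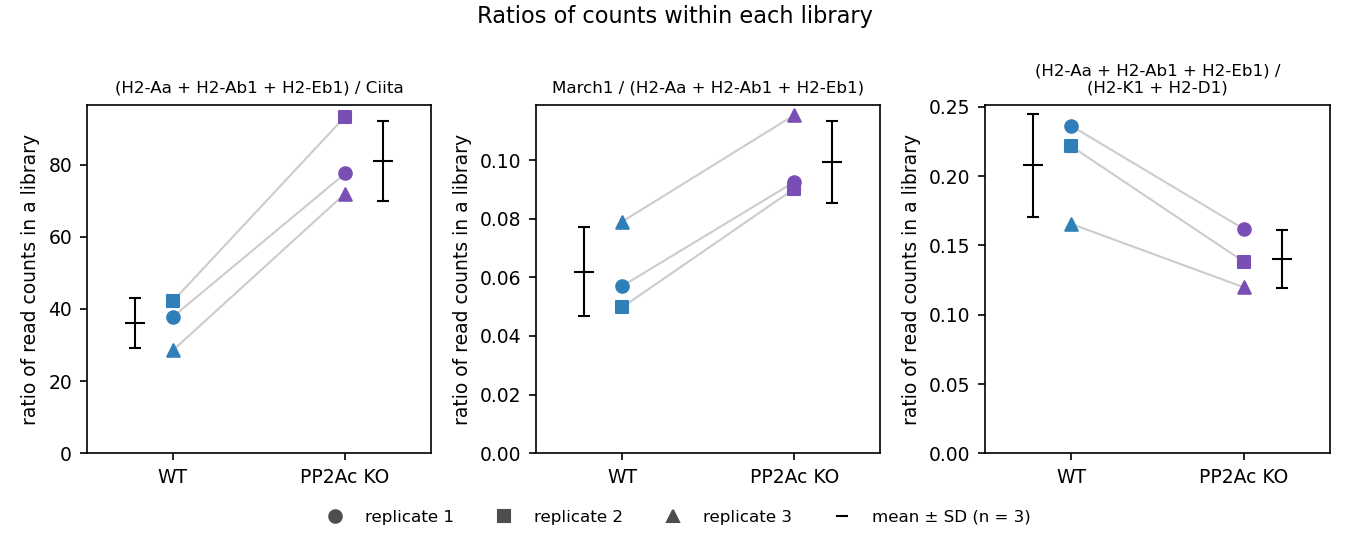
Counts of the 3 class II chains over those of Ciita (left), March1 over the chains (middle) and the chains over H2-K1 plus H2-D1 (right) in each library, with grey lines joining same-numbered libraries and black bars the mean ± SD (n = 3). The first pair of ratios were higher, and the last was lower, in all KO libraries than in all WT libraries.

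Other genes of the class II pathway were taken from lists by role, chosen with earlier results of these data known. Of 5 further class II genes, 3 could be tested, and 2 were higher, against 18.1% of all genes tested. H2-Oa, the alpha chain of the H2-DM inhibitor H2-O, had 46, 34 and 38 counts in KO and 15, 15 and 16 in WT (log2 fold change = 1.55, SE = 0.23, adjusted p = 0.000852 from edgeR). H2-Ob, its partner chain, had 20 to 45 counts in KO and 25 to 48 in WT and was not called (adjusted p = 0.726 from edgeR). H2-DMb2 had 97, 97 and 59 counts in KO and 59, 65 and 53 in WT, and its call was marginal (log2 fold change = 0.74, SE = 0.26, adjusted p = 0.0498 from edgeR). It was lost without KO replicate 1 or 2, without any single WT replicate, with upper-quartile scaling (0.0664) and with limma-voom (0.0813). H2-Ea-ps, the broken E alpha gene, had 0 or 1 count in each library.

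Of the 5 further promoter factors, none was called for genotype alone by edgeR, although Nfya (unadjusted p = 0.0321) and Creb1 (unadjusted p = 0.0324) were under 0.05 before adjustment. The median log2 fold change was 0.01. With the block Nfya was higher (log2 fold change = 0.15, adjusted p = 0.011 from edgeR) and Creb1 lower (-0.16, adjusted p = 0.00757 from edgeR). Of the 5, DESeq2 called Nfya alone and limma-voom called none. Rfxap, the remaining RFX subunit, gave -0.15 (SE = 0.10, adjusted p = 0.305 from edgeR), so Rfx5 was the RFX subunit that was called.

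Of 6 regulators of Ciita, 5 were higher, against 18.1% of all genes tested. The median log2 fold change was 0.40, against -0.02 over all genes tested. Irf1, an interferon regulatory factor that acts on the interferon-responsive Ciita promoter, had a log2 fold change of 0.64 (SE = 0.07, adjusted p = 0.00028 from edgeR), and Usf1, an E box factor, gave 0.44 (SE = 0.07). Spi1 and Irf8, myeloid factors, gave 0.34 (SE = 0.08) and 0.35 (SE = 0.06). Socs1, a feedback inhibitor of JAK signalling, gave 0.81 (SE = 0.09), and Prdm1, which encodes the Ciita repressor Blimp-1, was not called (0.01, SE = 0.07, adjusted p = 0.913 from edgeR). In these libraries Ciita was thus lower while the transcripts of its listed activators Irf1, Usf1, Spi1 and Irf8 were higher.

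Of 6 genes of invariant chain removal and antigen processing, 1 was higher and 2 were lower, against 18.1% and 19.0% of all genes tested. The median log2 fold change was -0.02. Ctss, the protease that trims the invariant chain in most antigen-presenting cells, was not called (0.07, SE = 0.09, adjusted p = 0.529 from edgeR). Ctsl, a related protease, fell from 59068 to 65043 counts in WT to 29881 to 38088 in KO (log2 fold change = -0.64, SE = 0.07, adjusted p = 0.000266 from edgeR). Ifi30, the lysosomal thiol reductase that unfolds antigens, was also lower (-0.32, SE = 0.06, adjusted p = 0.0025 from edgeR). The asparaginyl protease Lgmn was slightly higher (0.23, SE = 0.06, adjusted p = 0.0199 from edgeR), a call lost without KO replicate 2 or 3, without WT replicate 2 or 3 and with upper-quartile scaling (adjusted p = 0.074). Ctsb and Ctsd were not called.

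Of the 5 listed genes of class II turnover and surface contacts besides March1, 4 were higher, against 18.1% of all genes tested. Cd83, whose product opposes the action of March1 on class II, had a log2 fold change of 0.77 (SE = 0.06, adjusted p = 6.41e-05 from edgeR). Il10, a cytokine known to raise March1 and lower surface class II in monocytes, went from 195 to 463 counts in WT to 773 to 1106 in KO (1.73, SE = 0.21, adjusted p = 0.00031 from edgeR). Cd4 and Lag3, receptors that bind class II, gave 1.45 (SE = 0.07) and 1.27 (SE = 0.27), the latter at 14 to 47 counts per library. March8, the relative of March1, gave 0.11 (SE = 0.06, adjusted p = 0.188 from edgeR) and was called with the block (adjusted p = 0.0397).

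All 7 MHC class I genes listed for comparison were higher, against 18.1% of all genes tested, with a median log2 fold change of 0.94. The 10 members had a median of 0.06. They are a mixed set, in which Ciita fell (-1.09) and Rfx5 (0.93) and March1 (0.78) rose, so their median is not a class II level. Nlrc5, the class I counterpart of Ciita, gave 1.37 (SE = 0.17, adjusted p = 0.00033 from edgeR), opposite in sign to Ciita. The peptide transporter genes Tap1 and Tap2 gave 1.09 (SE = 0.11) and 0.99 (SE = 0.09). H2-K1 gave 0.94 (SE = 0.11), H2-D1 0.52 (SE = 0.09), B2m 0.74 (SE = 0.11) and Tapbp 0.74 (SE = 0.10). The H2-D1 95% interval of 0.31 to 0.73 and the H2-Ab1 interval of -0.35 to 0.50 overlap for genotype alone, and with the block the class II chains reached at most 0.20. The direct comparison of the chains with H2-K1 and H2-D1 is the ratio within libraries given above.

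**Figure D4:**
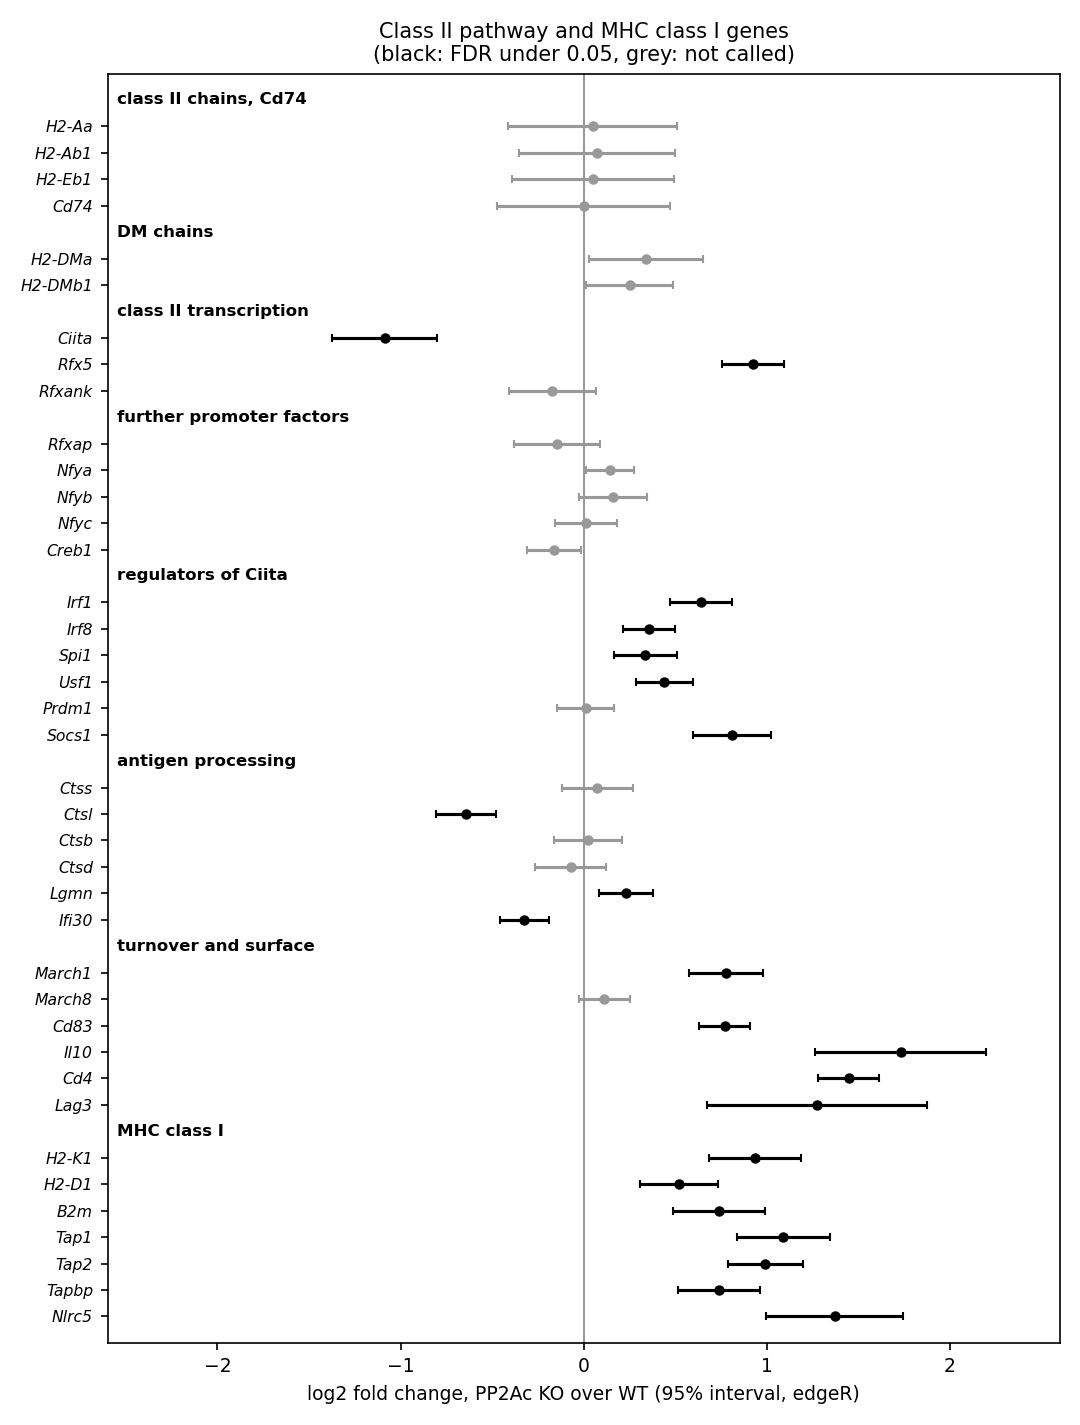
Log2 fold change, PP2Ac KO over WT, with 95% interval (edgeR, genotype alone) for the genes of the class II pathway by role and for 7 MHC class I genes, black where FDR was under 0.05 and grey where it was not. The class II chains and Cd74 lie around 0 with wide intervals, Ciita lies at -1.09, and the class I genes run from 0.52 to 1.37.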

How the data were processed

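Libraries were made from poly(A) RNA with a directional kit and sequenced paired-end. The authors deposited 1 table of whole-number read counts per gene symbol for mm10, without normalization. The submitters' processing notes list fastp 0.20.0, STAR 2.7.1a, HTSeq 0.11.2, kallisto 0.46.1, edgeR 3.34.0 and limma 3.48.3, and the strand setting of the counting is not given in the sources used here. No column of the table was left out.

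Groups and replicate numbers came from the labels. Counts were tested in R 4.3.3 with edgeR 4.0.16 (glmQLFit and glmQLFTest) for genotype alone after filterByExpr (minimum count 10, minimum total 15) and TMM scaling, with Benjamini-Hochberg adjustment over 13680 genes. Intervals are 95% intervals. Alternatives were scaling by RLE or by the upper quartile, other filters, DESeq2 1.42.0, limma-voom (limma 3.58.1), a replicate block and libraries left out. The pairing came from the replicate numbers in the labels, which do not say what a number shares. Deviations from the group mean correlated between same-numbered libraries at 0.289, 0.148 and 0.337 for numbers 1, 2 and 3. Correlations between differently numbered libraries were not computed, so whether the numbers pair the samples was not tested. Results with the block assume that they do. On simulated counts for KO against WT (13680 genes with means and library sizes as in these libraries), 13524 were tested after the filter. The test found 200 of 200 changed genes with 11 false calls. The changed genes were well counted and set to a log2 fold change of at least 1 in either direction. All genes shared a common dispersion. Recovery of smaller changes, or of genes as variable as the class II chains, was not tested.

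The members, the pathway lists and the motifs were chosen with earlier results of these data known. Some genes of the lists are not reported here. All 10 members are named, other genes come from the lists, and the genes most like Ciita, Cd74 and H2-Ab1 were the 3 with the smallest root mean square difference of centred log2 CPM among genes over 1 CPM. Coordinates and exon lengths are from GENCODE M21 (GRCm38) and promoter windows from RefSeq. The floor of 3 counts covers counting error only.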

Additional observations from a re-analysis of the deposited data

How the results depend on the processing

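Each member was refitted under 16 alternatives, 160 fits in all. In 152 the direction of a called change and the side of the 0.05 threshold were as reported, in 8 an uncalled member became called, and no called change was lost or reversed. All 8 were H2-DMa (6) or H2-DMb1 (2). The number of members higher was 4 with no filter on low counts (2 with the filter) and 4 with the replicate block. Leaving out 1 library at a time gave 2 to 3, and the third was H2-DMa, called without KO replicate 3 (adjusted p = 0.0394) and without WT replicate 1 (0.0321), both from edgeR. It was also called by DESeq2 (0.0472) and without both libraries numbered 3 (0.0261). The block changed no other call among the members, and of the listed genes it changed those of Nfya, Creb1, March8 and the macrophage markers Csf1r and Lyz2. Leaving out single libraries moved Ciita between -1.25 and -0.99, Rfx5 between 0.87 and 0.99 and March1 between 0.70 and 0.86 on the log2 scale. Cd74 changed sign, without a call, in 8 alternatives, H2-Aa in 4, H2-Eb1 in 3 and H2-Ab1 in 2. Leaving out both same-numbered libraries was chosen after seeing the data, and without both numbered 2 the genes higher and lower were 1295 and 1070 in place of 2470 and 2604, and the calls of Irf8 (adjusted p = 0.0509 from edgeR) and Spi1 (0.0749) were lost. Further class II genes higher numbered 1 in place of 2 where H2-DMb2 lost its call, and processing genes higher 0 in place of 1 where Lgmn did. Promoter factors higher numbered 1 in place of 0 with RLE scaling, DESeq2 and the block, and lower 1 in place of 0 with upper-quartile scaling and the block. Apart from Ighm, the B, T and NK cell markers and the H2-O genes had under 50 counts in every library, so depth limits what they show.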

Other observations

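The genes whose profile over the 6 libraries was most like that of a member were looked up by the root mean square difference of centred log2 CPM, as a description over 6 libraries with no test. For Ciita these were Cav1 (0.04), a caveolar coat protein, Pdgfrb (0.06), a growth factor receptor of stromal cells, and Lyz1 (0.10), the lysozyme copy next to Lyz2. Cav1 gave 3.23, 2.51 and 2.37 CPM in KO and 6.02, 5.70 and 5.18 CPM in WT. Lyz1 gave 50.5, 46.7 and 41.9 CPM in KO and 106, 99.1 and 81.3 CPM in WT, and reads could have been divided between it and Lyz2. For H2-Ab1 the nearest genes outside the members were Gprc5c (0.06), Isy1 (0.07) and Rab44 (0.07), and for Cd74 they were Plekha6 (0.08), Fam43a (0.08) and Dmkn (0.09), all low in both libraries numbered 3. Gprc5c gave 50.5, 50.3 and 34.7 CPM in KO and 50.2, 46.2 and 29.8 CPM in WT.

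Lyz2, whose promoter drives Cre in the KO mice, had 260 to 421 counts in KO and 304 to 349 in WT (log2 fold change = 0.28, adjusted p = 0.104 from edgeR, or 0.0118 when blocked on replicate number). Its neighbouring copy Lyz1 was lower in KO (log2 fold change = -1.04). Reads could have been divided between the copies, so no contrast between them is drawn from these counts.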
